A study of Mus with 438 samples.

Results

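Nck2, Gldc, Cdh13, Serinc5 and Nt5dc2 were followed through single mouse cone photoreceptors. The genes were chosen by their measured values, as high in cones at postnatal day 2 (P2), and make up 5 of the 10390 genes in the table, all of them measured. Their high level at P2 is therefore how they were selected and not a result, and every comparison of P2 with another age or group is given as a description with no test. The tests of superior against inferior cones include the P2 pair. None of the 5 is in a list of 22 genes of immature neurons drawn up for comparison. At a level of over 10 CPM (counts per 1e+06 reads of the library), every one of the 56 P2 cones held at least 1 of them. At P8 it was 13 of 24 superior and 15 of 24 inferior cones, and at P21 it was 1 and 3 of 24.

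Nck2 encodes an adaptor protein whose SH2 and SH3 domains link phosphorylated receptors at the membrane to regulators of actin, and Nck adaptors are known for their part in growth cone and axon guidance signalling. Gldc encodes glycine decarboxylase, the subunit of the mitochondrial glycine cleavage system that feeds the folate one-carbon pool. Cdh13 encodes T-cadherin, an unusual cadherin that is held in the membrane by a lipid anchor and lacks the cytoplasmic tail to which catenins bind. Serinc5 encodes a membrane protein with many transmembrane segments, known in human cells for lowering the infectivity of retroviral particles. Nt5dc2 is named for the nucleotidase domain of its protein, and its role in photoreceptors is not described here. Thrb, the gene that the study altered, encodes the thyroid hormone receptor whose TRb2 isoform is needed for M opsin in mouse cones. M opsin is most abundant toward the superior retina and S opsin toward the inferior retina, the zones from which cones were taken.

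All RNA libraries came from C57BL/6 mice, and each was made from 1 cell picked by its fluorescence under a microscope. Knockout cones were Trb2Cre-KO:Ai6 at 2 months, with 50 superior and 48 inferior cells. Rods were tgNrl:gfp cells at 2 months, 29 in all with no zone given. Control cones were Trb2Cre-het:Ai6, so the controls also carried the Cre allele, with 26 superior and 30 inferior cells at P2, 24 and 24 at P8, 24 and 24 at P21, 26 and 21 at P60, and 53 and 50 at 2 months. Cones could be picked only where the Trb2Cre driver had switched on the Ai6 reporter, and rods came from a different transgene. The labels name no animal, so the cells of 1 age, zone and genotype were treated as 1 sample, and nothing was tested over cells. In addition, a list of ChAP-seq regions (DNA bound by biotin-tagged receptor, ThrbHAB:BirA against BirA retina at E18) and lists of ATAC-seq regions of open chromatin in purified cones at P30 (Trb2Cre-KO:Sun1-gfp and Trb2Cre-het:Sun1-gfp) were used.

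Libraries held 8.98e+05 to 3.26e+07 reads. The group medians were 1.83e+07 reads for rods, 1.09e+07 to 1.36e+07 for knockout and control cones at 2 months, and 1.74e+06 to 3.25e+06 for control cones at P2 to P60. Of the P60 superior libraries, 1 pair agreed far more closely than any other (chi-square 1.87 per degree of freedom, against 5654 to 6733 for the 3 next closest pairs of any group) and was counted as 1 cell, which leaves 429 cells of 430 libraries. Cell identity was checked on markers: the 9 cone markers, all detected, summed to 88.2 CPM in rods, against 8012 CPM in superior and 9180 CPM in inferior control cones at P2 and more at later ages. The 8 of 9 rod markers in the table summed to 129222 CPM in rods, against 533 to 20522 CPM over the control cone groups. In superior cones Thrb averaged 43.2 CPM in the knockout against 213 CPM in 2-month controls, and in inferior cones 33.9 CPM in the knockout against 170 CPM in controls.

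Nck2 averaged 111 CPM in superior and 105 CPM in inferior cones at P2, with a highest cell of 1117 and 847 CPM and medians of 0.165 and 0 CPM. At P8 the means were 12.7 CPM in superior and 52.7 CPM in inferior cones. At P21 no superior cell had a read, and the highest inferior cell had 0.552 CPM. At P60 the superior cones ranged from 0 to 9.01 CPM and the inferior cones had none, and at 2 months the highest superior cell had 3.47 CPM and the highest inferior cell 0.412 CPM. The mean at P2 thus came from a minority of cells: 6 of 26 superior and 8 of 30 inferior cones were over 10 CPM. At P8 it was 2 of 24 superior and 5 of 24 inferior cones, and from P21 on no control cone exceeded 10 CPM.

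Gldc averaged 81.1 CPM in superior and 48.2 CPM in inferior cones at P2, with highest cells of 502 and 440 CPM and a median of 0 in both zones. At P8 it averaged 9.44 CPM in superior cones, where 2 of 24 cells were over 10 CPM, and 0.0203 CPM in inferior cones, where 1 cell had any read. At P21 the highest cell had 4.98 CPM, at P60 no cell of either zone had a read, and at 2 months the highest cell had 1.85 CPM. Its cells over 10 CPM numbered 8 of 26 superior and 6 of 30 inferior at P2, so Gldc was in few cones even at its highest age. Because it exceeded 1 CPM in 6 of 30 inferior P2 cones, it fell short of a stricter working definition of high at P2, which asked for 25% of cells and which Nck2, Cdh13, Serinc5 and Nt5dc2 met in both zones.

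Cdh13 averaged 262 CPM in superior and 205 CPM in inferior cones at P2, where medians were 222 and 0.680 CPM and the highest cells 1100 and 878 CPM. Its P8 means were 19.1 CPM in superior and 17.3 CPM in inferior cones, from 3 and 2 cells over 10 CPM, and without the highest cell of each group they were 11.99 and 6.97 CPM. The highest P21 cell had 5.51 CPM, and no P60 cell had a read. At 2 months, in contrast to P21 and P60, 2 of 53 superior cones (174 and 188 CPM) and 1 of 50 inferior cones (284 CPM) held it within the range of P2 cells, while the median stayed at 0. Those 3 cells carried cone markers at 39677 to 42144 CPM.

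Serinc5 averaged 233 CPM in superior and 237 CPM in inferior cones at P2, with medians of 150 and 147 CPM and highest cells of 1008 and 1158 CPM. At P8 the means were 65.4 CPM in superior and 39.4 CPM in inferior cones, and 10 of 24 superior and 6 of 24 inferior cells were over 10 CPM. At P21 the means were 1.16 CPM in superior and 13.5 CPM in inferior cones, from 1 and 2 cells over 10 CPM. In the adult control groups 1 or 2 cells each were over 10 CPM and the rest were at or near 0: the highest cell had 87.5 CPM in superior and 156 CPM in inferior cones at P60, and 209 CPM in superior and 70.4 CPM in inferior cones at 2 months.

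Nt5dc2 averaged 267 CPM in superior and 283 CPM in inferior cones at P2, with medians of 279 and 293 CPM, and 22 of 26 superior and 28 of 30 inferior cells were over 10 CPM. At P8 the means were 8.69 CPM in superior and 15.6 CPM in inferior cones, and the medians were 0. At P21 no superior cone had a read, while 1 of 24 inferior cones held 318 CPM and made up the whole inferior mean of 13.3 CPM. At P60 no superior cone had a read and the highest inferior cell had 11.3 CPM. At 2 months the highest cell had 322 CPM in superior and 154 CPM in inferior cones, with 2 cells over 10 CPM in each zone. Over both zones Nt5dc2 at P2 was over 10 CPM in 50 of 56 cones, while Nck2 and Gldc each were in 14 of 56. CPM is not corrected for gene length, so the genes are not ranked by level.

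**Figure D1:**
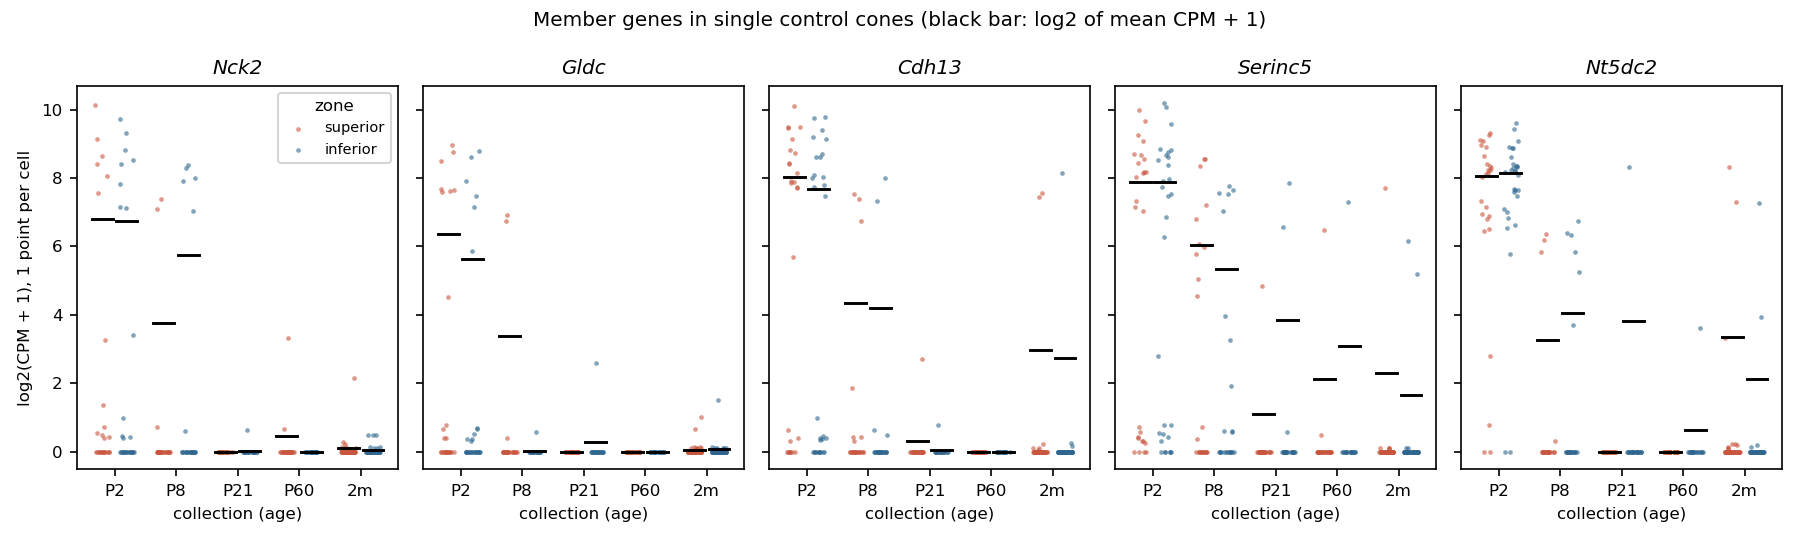
Each point is 1 control cone, with log2(CPM + 1) of the gene on the vertical axis and age on the horizontal axis, superior cells in red left of inferior cells in blue; black bars mark log2 of the group's mean CPM + 1. At P2 the cells split into a high group and a group near 0 for every gene, and from P21 on nearly all points lie at 0, with single high cells for Cdh13, Serinc5 and Nt5dc2.

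Set against P2, the genes went at unequal pace between P2 and P8. Nt5dc2 kept 3.25% of its P2 mean in superior and 5.53% in inferior cones at P8, and Cdh13 kept 7.30% and 8.46% in those zones. Gldc kept 11.6% in superior and 0.0421% in inferior cones. Serinc5 kept 28.1% in superior and 16.7% in inferior cones, and Nck2 kept 11.4% in superior and 50.2% in inferior cones. By a rule that asked for a mean at least 4-fold lower in both zones on the log2(mean CPM + 1) scale, Gldc, Cdh13 and Nt5dc2 were lower at P8, which is 3 of 5, against 3.09% of the 8133 genes that averaged at least 10 CPM in both P2 groups. Serinc5 missed it by the superior zone and Nck2 by the inferior zone. By P21, P60 and 2 months all 5 met the rule, against 6.23%, 6.42% and 7.44% of those genes. Since the members were chosen for being high at P2, these counts only say when the level went.

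A nearer yardstick for the timing is the 158 genes that meet the stricter definition of high at P2 (an average of at least 10 CPM, 25% of cells over 1 CPM, and at least 4-fold above both P60 and 2 months, in both zones). Of these 31.6% were at least 4-fold lower in both zones by P8 and 57.6% by P21, and the median share of the P2 mean left at P8 was 30.1% in superior and 24.9% in inferior cones. Nt5dc2, Cdh13, Serinc5 and Gldc, the last of which is not among the 158, were below that median in both zones, Serinc5 by the least (28.1% in superior and 16.7% in inferior cones). Nck2 was below it in superior cones and above the upper quartile of 44.2% in inferior cones. The median of all 10390 genes also moved, by -0.15 and -0.20 at P8 and by -0.34 and -0.48 at 2 months on the log2 scale in superior and inferior cones, far less than the members did.

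**Figure D2:**
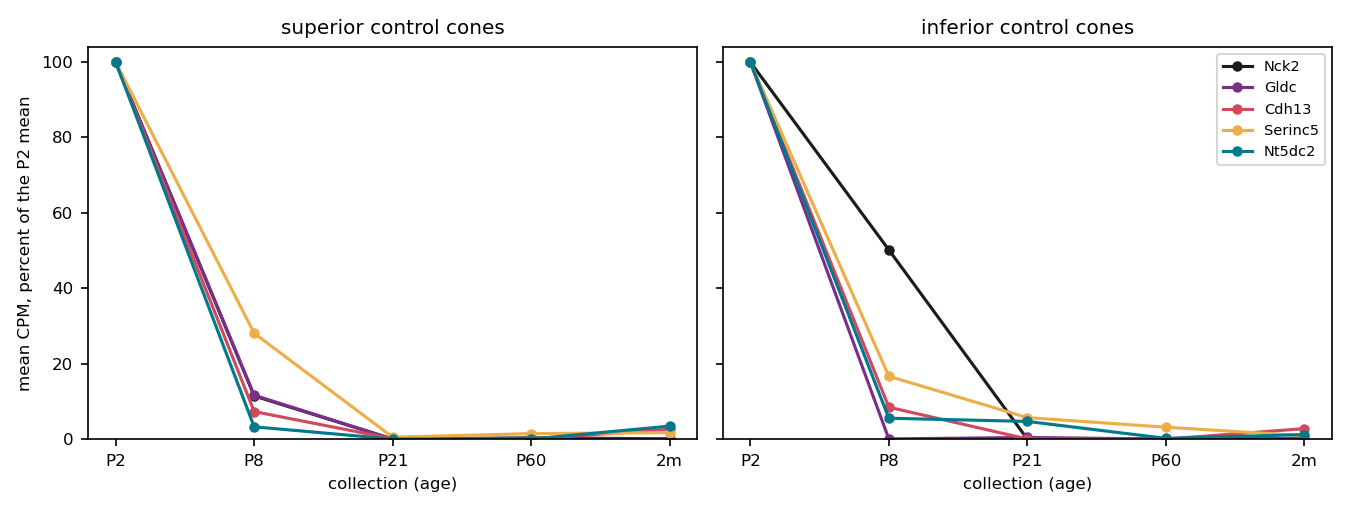
Lines give each gene's mean CPM as a percent of its P2 mean against age, superior control cones on the left and inferior on the right. In superior cones the Nck2 and Gldc lines nearly coincide (11.4% and 11.6% at P8); in inferior cones Nck2 stands at 50.2% at P8 and all genes are below 6% from P21 on.

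The same cells did not carry all 5 genes. Superior and inferior P2 cones each held a median of 2.5 of the 5 genes over 10 CPM, 22 of 26 superior and 25 of 30 inferior cones held at least 2, and 1 superior cell held all 5. At P8, 13 of 24 superior and 15 of 24 inferior cones held any, and 5 and 4 of them held at least 2. At P21 it was 1 superior and 3 inferior cones with 1 gene each. Across the 56 P2 cones the pairwise Pearson correlations of the log2 values lay between -0.39 for Cdh13 with Nt5dc2 and 0.18 for Nck2 with Gldc, which are descriptions over cells that share a collection. At P2 the cells over 10 CPM were the deeper ones by median for each of the 5 genes, least for Nck2 (3.13e+06 reads in cells over it and 3.06e+06 in the others) and most for Nt5dc2 (3.12e+06 reads in 50 cells over it and 2.62e+06 in 6 others), and the part of depth in these shares was not tested.

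**Figure D3:**
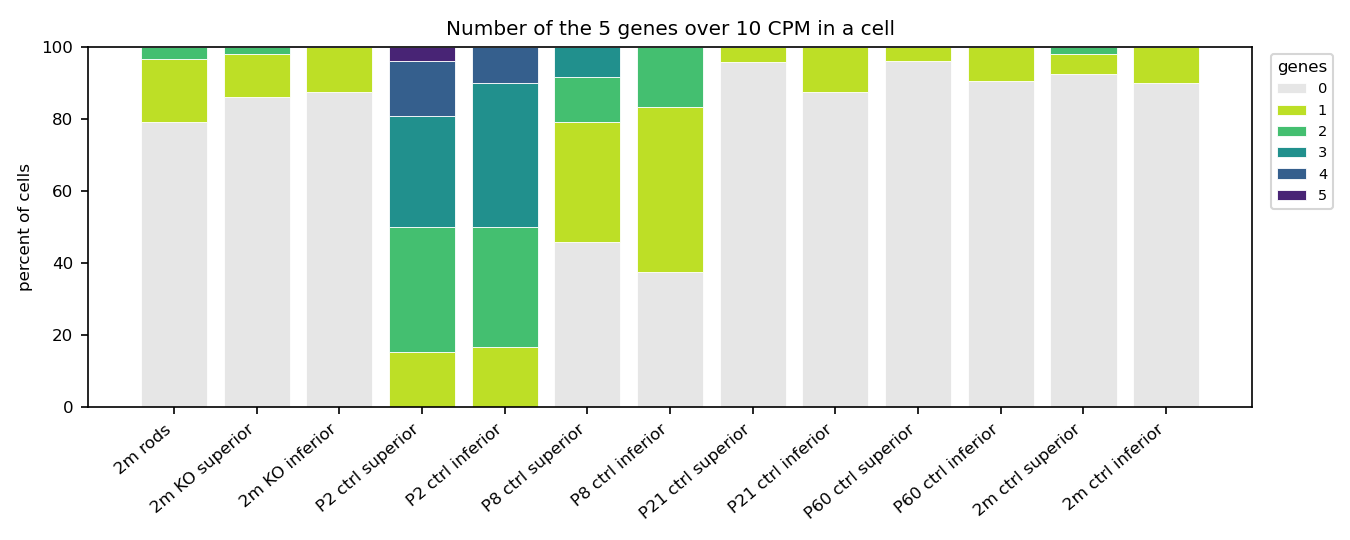
Stacked bars give the percent of cells of each group with 0 to 5 of the genes over 10 CPM, with rods and knockout cones left of the control cones in order of age. No P2 cone has 0, 54.2% of superior and 62.5% of inferior P8 cones have at least 1, and most cells of every later group have 0.

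The marker sums of several other cell types were also higher at P2 than later, and those of rods and microglia were not. Some single markers went the other way, given here for superior and inferior cones. Rlbp1 of Müller glia had 30.4 and 17.2 CPM at P2 against 91.7 and 174 CPM at 2 months. Glul had 22.4 and 31.6 CPM against 30.6 and 81.7 CPM, and Nefl of ganglion cells 0 and 9.62 CPM against 10.5 and 30.7 CPM. Apoe, at 647 and 697 CPM, was the largest part of the Müller glia sum at P2. The retinal progenitor markers Hes1 and Lhx2 summed to 105 CPM in superior and 124 CPM in inferior cones at P2, to 6.60 and 0.0420 CPM at P8, and to between 0 and 28.8 CPM in later control groups. The 6 of 8 Müller glia markers summed to 1174 CPM in superior and 1022 CPM in inferior cones at P2 and to 68.1 to 378 CPM in later control groups. The 3 of 8 amacrine markers summed to 174 and 177 CPM at P2 and to 13.6 to 127 CPM later. Bipolar markers (2 of 8 in the table) summed to 335 and 482 CPM at P2 and to 58.6 to 286 CPM later, and horizontal cell markers (2 of 6) to 50.2 and 21.2 CPM at P2 and 0.0606 to 10.3 CPM later. Ganglion cell markers (3 of 8) summed to 79.5 and 99.4 CPM at P2 and to 8.97 to 80.6 CPM later, the higher of these in adult inferior cones. Kdr of endothelium had 90.2 and 41.9 CPM at P2 and 0 to 17.6 CPM later. Csf1r of microglia had 5.74 and 9.25 CPM at P2 and 0.0416 to 17.7 CPM later, and the rod markers summed to 604 and 533 CPM at P2 and to 9671 to 20522 CPM later. None of the 5 pigment epithelium markers was in the table. At P2, the 14 cones over 10 CPM for Nck2 had a median sum of these progenitor markers of 153 CPM, against 0.609 CPM in the 42 not over it. For Gldc the medians were 152 CPM in 14 cells over 10 CPM and 0.671 CPM in the other 42. For Cdh13 and Serinc5 they ran the other way, 0.540 CPM in 30 cells over 10 CPM and 100.2 CPM in 26 not over it for Cdh13, and 0.731 CPM in 32 cells and 25.5 CPM in 24 cells for Serinc5. For Nt5dc2 they were 4.47 CPM in 50 cells over it and 0 in 6 not over it. The cells over 10 CPM also had lower median cone marker sums for Nck2 (5107 CPM, against 7739 CPM in the others) and Gldc (5617 against 8360 CPM). The same held for Cdh13 (6865 against 7507 CPM) and Nt5dc2 (7198 against 9361 CPM), while Serinc5 went the other way (7890 against 6788 CPM). Their amacrine marker sums were higher for Nck2 (193 against 88.8 CPM), Gldc (255 against 43.2 CPM), Cdh13 (125 against 43.2 CPM) and Nt5dc2 (125 against 1.72 CPM). For Serinc5 the amacrine sum was lower (29.5 against 146 CPM). Whether RNA of other cells or of immature cones adds to the member values at P2 was not tested.

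Zone was the contrast that could be tested, since superior and inferior cones were taken in each of the 5 control collections. Of these, P60 and 2 months are of nearly the same age. Over these 5 pairs no member passed the test: superior minus inferior, on the scale of log2(mean CPM + 1), was -0.28 (SE 0.62) for Nck2, 0.76 (SE 0.72) for Gldc, 0.20 (SE 0.51) for Cdh13, -0.47 (SE 0.60) for Serinc5 and -0.82 (SE 0.74) for Nt5dc2. In limma with collection as a block the Benjamini-Hochberg adjusted p was 0.949, 0.847, 0.957, 0.897 and 0.847 in that order. The test called 0 of the 10136 genes that averaged 5 CPM or more (0%), with 710 genes at an unadjusted p under 0.05, and a count model, edgeR on the recovered reads, also called 0 while DESeq2 called 240. An exact two-sided sign-flip test over the 5 collections cannot go below p = 0.0625. For Cdh13 and Gldc, at 0 in both zones at P60, it cannot go below p = 0.125. The test gave p = 0.125, its floor, for Cdh13, and p = 0.4375 to 0.9375 for the other genes. Cdh13 was higher in superior cones in the other 4 collections, at P21 by 0.230 against 0.0303 CPM. With standard errors of 0.51 to 0.74 over 5 pairs, a 2-fold difference between zones was not detectable for any of the genes. Where a gene was near 0 in both zones its difference is held near 0, so these standard errors pool pairs of unequal spread.

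At P8 Gldc and Nck2 had the largest zone differences of the 5 genes. Gldc averaged 9.44 CPM in superior against 0.0203 CPM in inferior cones, a log2 difference of 3.35, and Nck2 averaged 12.7 CPM in superior against 52.7 CPM in inferior cones, a log2 difference of -1.97. These rest on 2 of 24 superior against 0 of 24 inferior cones over 10 CPM for Gldc, and on 2 of 24 superior against 5 of 24 inferior cones for Nck2. The exact 95% intervals of those shares, which cover counting error only, were 1.03 to 27% in superior and 0 to 14.2% in inferior cones for Gldc, and 1.03 to 27% in superior and 7.13 to 42.2% in inferior cones for Nck2, so they overlap. A limma test asked whether the zone difference at P2 and P8 departs from that at P21, P60 and 2 months. It called 0 of 10136 genes (0%), with 523 at an unadjusted p under 0.05. The estimate was 2.14 (SE 0.87, adjusted p = 0.904) for Gldc and -1.11 (SE 0.74, adjusted p = 0.904) for Nck2. At P21, P60 and 2 months both genes were near 0 in both zones, which holds those differences near 0. The SE pools them with the P2 and P8 differences as if of equal spread.

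In Trb2Cre-KO cones, Nck2 was seen over 10 CPM in some cells of both zones, while no adult control cone exceeded that level. Superior knockout cones averaged 28.3 CPM of Nck2, against 0.0809 CPM in superior control cones at 2 months and 0.369 CPM at P60. Inferior knockout cones averaged 9.17 CPM, against 0.0310 CPM in inferior control cones at 2 months and 0 at P60. Over 10 CPM were 6 of 50 superior (12%, exact interval 4.53 to 24.3%) and 2 of 48 inferior knockout cones (4.17%, 0.509 to 14.3%). Of 2-month control cones, 0 of 53 superior (exact interval 0 to 6.72%) and 0 of 50 inferior ones (0 to 7.11%) were over it. Among P60 control cones it was 0 of 26 and 0 of 21. The knockout and 2-month control intervals, which cover counting error only, overlap in each zone. The 8 knockout cells held 160 to 329 CPM, within the range of P2 cones, and the other knockout cells were mostly at 0. With each cell thinned to 897892 reads, 7 of 50 superior and 3 of 48 inferior knockout cones had an Nck2 read, against 2 of 53 and 2 of 50 control cones at 2 months. The knockout mean was 25.6% of the P2 mean in superior and 8.73% in inferior cones. The 8 cells carried cone markers at 63122 to 106338 CPM and Hes1 and Lhx2 at 0. Over whole groups the bipolar markers summed to 418 CPM in superior knockout against 58.6 CPM in superior 2-month control cones. In inferior cones it was 364 CPM in the knockout against 226 CPM in controls. In the 8 cells themselves these sums were 17.5 to 435 CPM. Ganglion cell markers summed to 546 CPM in the superior cell with 182 CPM of Nck2. They summed to 262 CPM in the inferior cell with 227 CPM, and to under 1 CPM in the others. The inferior cell with 227 CPM also had amacrine markers at 106 CPM and Csf1r at 107 CPM. The part of RNA of other cells in the Nck2 values was not tested.

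This was 1 collection of knockout cells, so no test of the genotype was possible. By the rule used for knockout against 2-month control cones (at least 2-fold in the same direction in both zones, with an average of 10 CPM in the higher group and 25% of its cells over 1 CPM), none of the 5 genes reached both the minimum level and the minimum share of cells in both zones, so none could be called in either direction. Of the 4959 genes that could be, 2.2% were called higher and 2.1% lower. P60 against 2-month control cones, where no difference in genotype exists, gave 5% and 5.06% of 5258 genes. The P60 groups were shallower (median 1.97e+06 superior and 2.22e+06 inferior reads) and smaller (26 and 21 cells). The 2-month control groups had 1.26e+07 and 1.36e+07 reads in 53 and 50 cells, and the knockout groups 1.21e+07 and 1.09e+07 reads in 50 and 48 cells. The percentages are therefore not on an equal footing. Nck2 fell short of the share of cells in both zones and, at 9.17 CPM, of the mean in inferior cones. With no minimum share and an average of at least 5 CPM in either group, a choice made after seeing the data, only Nck2 and Cdh13 could be called, and Nck2 was at least 2-fold higher in both zones, as were 4.62% of 9543 genes. Since Nck2 met that minimum only through the knockout groups, where it is high, nothing is read from this call, nor from its share of cells over 10 CPM being higher in knockout cones than in both adult control collections in both zones, as for 5.46% of those genes. The knockout comparison and that of P60 with 2-month control cones share the 2-month control cones.

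Against 2-month control cones, none of the other 4 genes had a higher mean in knockout cones in both zones. Gldc averaged 5.48 CPM in superior knockout against 0.0422 CPM in superior control cones and 0.0127 CPM in inferior knockout against 0.0466 CPM in inferior control cones at 2 months, and 1 knockout cell of 270 CPM gave nearly all of the superior value; that cell, with 168 CPM, was also 1 of the 6 for Nck2. Cdh13 averaged 0.00114 CPM in superior knockout against 6.84 CPM in superior control cones, and 13.3 CPM in inferior knockout against 5.68 CPM in inferior control cones, from 0 and 2 knockout cells over 10 CPM against 2 and 1 control cells. Serinc5 averaged 0.00248 CPM in superior knockout against 3.95 CPM in superior control cones, and 5.29 CPM in inferior knockout against 2.12 CPM in inferior control cones, with 0 and 1 knockout cells over 10 CPM against 1 and 2 control cells. Nt5dc2 averaged 6.16 CPM in superior knockout against 9.18 CPM in superior control cones, and 2.08 CPM in inferior knockout against 3.38 CPM in inferior control cones. Against P60 control cones, Nt5dc2 was higher in both zones, at 6.16 CPM in superior knockout against 0 in superior control cones and 2.08 CPM in inferior knockout against 0.536 CPM in inferior control cones. Gldc and Cdh13 were at 0 in both P60 groups, so each knockout mean was above them, and Serinc5 had 3.38 CPM in superior and 7.45 CPM in inferior P60 cones, above the knockout means. For these 4 genes few knockout cells carry the means.

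**Figure D4:**
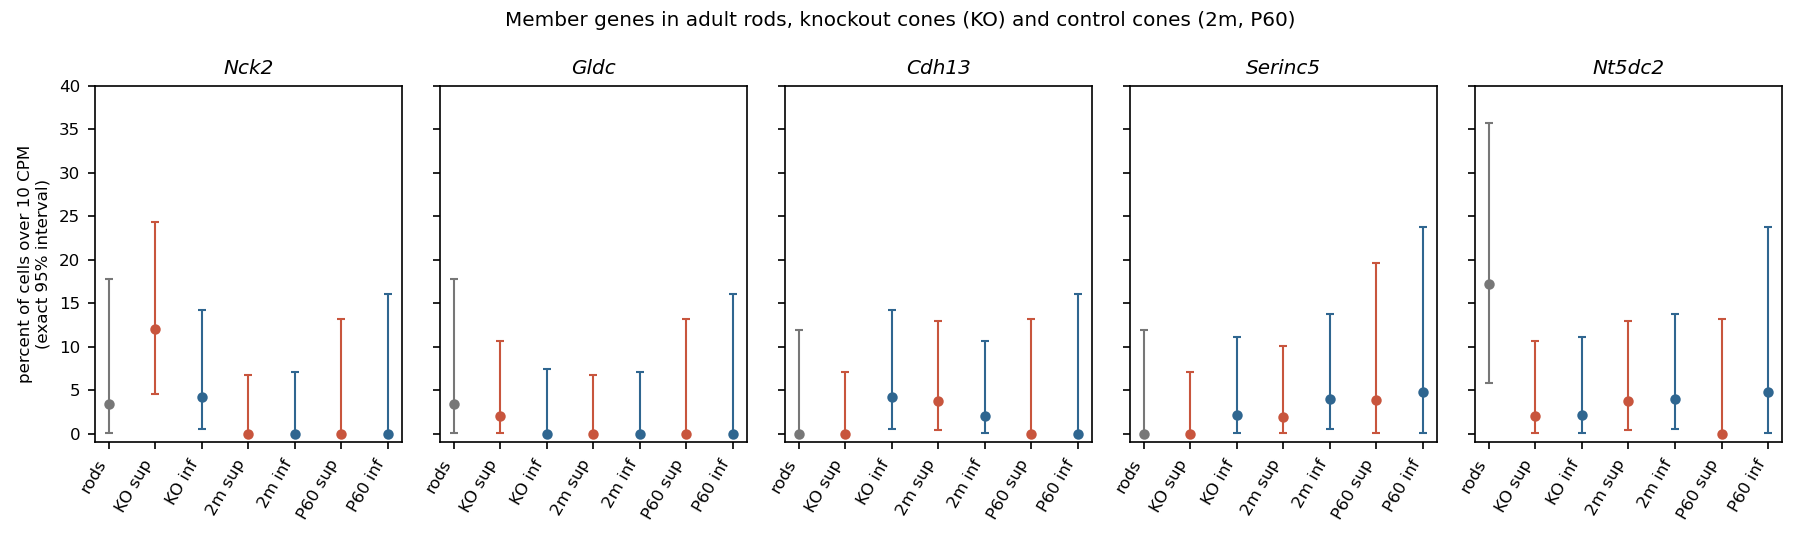
Points give the percent of cells over 10 CPM in 2-month rods, 2-month knockout cones (KO), 2-month control cones and P60 control cones, with exact 95% intervals for counting error; red is superior, blue inferior, grey rods. Nck2 is above 0 in both knockout groups (12% and 4.17%) and at 0 in all 4 control groups, and Nt5dc2 stands at 17.2% in rods.

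In rods, the other photoreceptor type, Nt5dc2 was over 10 CPM in a larger share of cells than in adult cones, in 1 collection of rods and with no test. Nt5dc2 averaged 67.0 CPM in rods, against 9.18 CPM in superior and 3.38 CPM in inferior 2-month control cones, and 5 of 29 rods (17.2%, exact interval 5.85 to 35.8%) were over 10 CPM, with values from 219 to 927 CPM, against 2 of 53 and 2 of 50 control cones. A further 20 rods had reads at or under 10 CPM, and the rod median was 0.131 CPM; thinned to the same depth, 7 of 29 rods had a read, against 4 of 53 superior and 2 of 50 inferior control cones. Nck2 averaged 26.97 CPM and Gldc 27.8 CPM in rods, each from a single cell, of 781 and 805 CPM. No rod had a read of Cdh13, and the highest rod had 0.129 CPM of Serinc5. By the 4-fold rule against both cone zones, with the same minimum of cells, none of the 5 genes could be called, since none reached both the minimum level and the minimum share of cells. Of the 4262 genes that could be, 1.45% were called higher in rods and 20.9% lower. The rod with 781 CPM of Nck2 also held 219 CPM of Nt5dc2. Rods as a group had a Müller glia marker sum of 2395 CPM, against 243 and 378 CPM in 2-month control cones. In the 5 rods over 10 CPM for Nt5dc2 this sum was 750 to 4101 CPM. The rod with 226 CPM of Nt5dc2 had ganglion cell markers at 3850 CPM, against 256 CPM over all rods. That with 287 CPM had amacrine markers at 1323 CPM (74.7 CPM over all rods). That with 279 CPM had Kdr at 539 CPM (85.5 CPM over all rods). Those with 927 and 219 CPM had under 1 CPM of each. The part of RNA of other cells in these values was not tested.

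The deposited region lists were not used to choose the genes. Intervals are those of RefSeq genes on GRCm38.p6, the build of the files (mm10), with the strand not given in the table used. Nck2 (chr1:43445483-43570518, 125 kb) had 10 regions of the ATAC list named suppressed within 50 kb and none of the ChAP or the induced list. Of these, 9 lay within the gene; chr1:43445349-43447107 covers its low-coordinate end, and the last, chr1:43566830-43567360, lies near its other end. Over the 10146 genes that could be placed, 13.1% had a suppressed region within 50 kb and 7 genes had at least 9 inside the interval: Nrxn3 (24), Cdh12 (13), Mast4 (12), Phactr1 (10), Tacc2 (10), Nck2 (9) and Nckap5 (9). Nck2 is the shortest of these at 125 kb, and with 7.20 suppressed regions per 100 kb it had the highest density of the 2764 genes of at least 50 kb, a comparison chosen after its values were seen; of the 5597 genes of at least 20 kb, 11 were as dense, Nck2 included. The files do not say whether a suppressed region was more or less open in knockout cones, so the name of the list is taken as it stands.

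Gldc (chr19:30098441-30175441, 77.0 kb) held 2 suppressed regions, at chr19:30159949-30160444 and at chr19:30174692-30175680, which covers its high-coordinate end, and no region of the other lists. Cdh13 (chr8:118140017-119324929, 1185 kb) was the 1 member with regions of all lists within 50 kb: 4 ChAP, 6 induced and 2 suppressed. Among its ChAP regions, chr8:118091837-118092136 and chr8:118239173-118239472 overlap induced ATAC regions and chr8:118437861-118438160 overlaps a suppressed one, where over the whole list 28.2% of 4590 ChAP regions overlap an induced and 2.31% a suppressed region. A gene of this length has more room for regions than most: 39% of genes had a ChAP region and 35.5% an induced region within 50 kb. Serinc5 (chr13:92611138-92711947, 101 kb) held 2 ChAP regions, chr13:92640211-92640510 and chr13:92683448-92683747, and no ATAC region. Nt5dc2 (chr14:31131089-31139124, 8.04 kb) had none of any list within 50 kb. Of the 2764 genes of at least 50 kb, 20 had suppressed regions in the interval at least as dense as Gldc and 470 at least as dense as Cdh13.

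**Figure D5:**
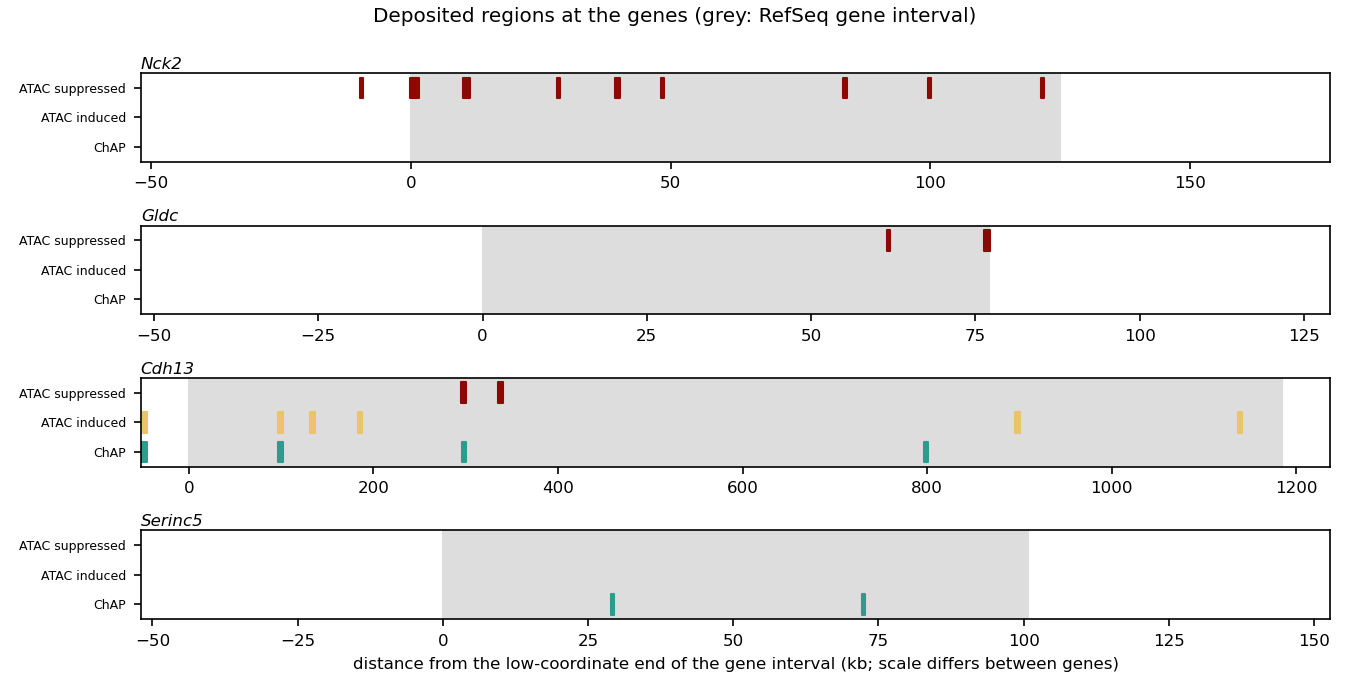
Bars mark the deposited ChAP, ATAC induced and ATAC suppressed regions from 50 kb before to 50 kb after 4 of the genes, against distance in kb from the low-coordinate end of the grey gene interval; bars narrower than the line are widened to be seen. Nck2 carries suppressed regions along its whole length and no other kind, and Cdh13 carries all 3 kinds.

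The pathway lists of the 5 genes held both genes that were lower at 2 months than at P2 and genes that were not. In the list of Nck adaptors and their actin partners, 27 of 37 genes were measured, 25 averaged at least 10 CPM in both P2 groups, and 8 of these were at least 4-fold lower at 2 months than at P2 in both zones, the rule that 7.44% of all 8133 genes at that level met. Besides Nck2 these included Ephb2, a receptor tyrosine kinase of axon guidance (1.22 and 3.57 CPM at 2 months against 45.1 and 69.4 CPM at P2 in superior and inferior cones), Git1 and Pak1. The paralog Nck1 was not among them, at 17.4 and 60.8 CPM at 2 months against 52.9 and 54.4 CPM at P2. The median log2 ratio of the list at 2 months was -1.28, against -0.43 for all genes. At P60, 4 of the 25 genes met the same rule, Nck2 included, against 6.42% of the 8133 genes. By P21 it was 2 of the 25, against 6.23%. Pak1 had 29.4 CPM in superior cones at P60, against 34.8 CPM at P2. Among 12 measured genes of glycine cleavage and one-carbon metabolism reported here, of which 10 reached that level at P2, Gldc was lower by this rule at 2 months. The partner subunits of Gldc in the table were not: Gcsh had 70.7 CPM in superior and 57.6 CPM in inferior cones at 2 months against 46.3 and 50.6 CPM at P2, and Dld 228 and 191 CPM against 117 and 129 CPM.

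Among 13 measured of 37 cadherins and catenins, of which 11 reached that level, Cdh13 and Cdh4 (R-cadherin; 3.99 and 6.52 CPM at 2 months against 143 and 108 CPM at P2) were lower, while Pcdh15 had 382 and 368 CPM at 2 months against 119 and 116 CPM. Of the 4 measured of 5 Serinc genes, Serinc5 alone was lower; Serinc3 had 758 and 537 CPM at 2 months against 565 and 541 CPM at P2, and Serinc1 and Serinc4 were not lower either. Of the 8 measured of 11 nucleotidase genes, 7 reached 10 CPM in both P2 groups, and of these Nt5dc2 was lower. Nt5e, which encodes the cell surface nucleotidase CD73, had 1.20 and 0.00237 CPM at 2 months against 53.2 and 9.08 CPM at P2 and missed the rule by its inferior level at P2. For comparison, 7 of 15 measured genes of immature neurons were lower, among them Sox4 and Stmn1, against 7.44% of the 8133 genes. The cone phototransduction genes had a median log2 ratio of 2.29 at 2 months over P2, against -0.43 for all genes. Opn1mw and Arr3 were among those at least 4-fold higher. No gene of the members' pathway lists was called between knockout and control cones or between zones.

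Each member was correlated with 8133 genes by Pearson's r of log2(mean CPM + 1) over the 10 control cone groups. The highest r were those of Dapk1 (0.981), Ints7 and Map1lc3a for Nck2, and Mtnr1a (0.991), Nln and Tagln2 for Gldc. They were Tcf19 (0.987), Clic1 and Cplx1 for Cdh13, and Cby1 (0.977), Rab11b and H3f3b for Serinc5. For Nt5dc2 they were Cars (0.974), Topbp1 and Cmpk1. The median r over all genes so compared was 0.29 to 0.34, and superior and inferior groups share collections. A high r does not mean a change of like size. From P2 to 2 months in superior cones, Cby1 went from 50.8 to 25.3 CPM and Serinc5 from 233 to 3.95 CPM. Dapk1, a death-associated protein kinase, had 13.8 CPM in superior and 16.7 CPM in inferior cones at P2 and 0 in all P21 and P60 groups, with 4.14 CPM in superior knockout against 0.351 CPM in superior 2-month control cones, and 4.12 CPM in inferior knockout against 0.00204 CPM in inferior ones. Mtnr1a, the melatonin receptor gene, had 63.6 and 102 CPM at P2 and, like Gldc, was seen at P8 in superior cones (14.4 CPM) but hardly in inferior cones (0.0265 CPM). The P8 groups were among those used to pick it, so this likeness follows from the choice.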

How the data were processed

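The members and gene lists were chosen with earlier results of these data known. Per the labels' protocols, cells were dissociated with papain and libraries made with SMART-Seq v4 and ThruPLEX kits; the submitters' processing notes name bcl2fastq 2, STAR 2.7.3a, MACS2 2.2.7.1 and GRCm38/mm10. The counting tool, annotation, gene filter, any pooling for peak calls and the criterion behind the induced and suppressed names: not given in the sources used here. The authors deposited CPM scaled to the whole library, of which the 10390 listed genes hold 80.0% to 93.0%. All values above 0 (100%) were whole multiples of 1 read within 0.1 read, so reads were recovered; 5 libraries whose step is next to a round decimal were left out of the count models. The deposited ChAP list gives a p-value per region, used only to take the smaller-p part of the list, and the deposited ATAC lists a score of 0 for each region, used for position only.

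Group means of CPM were compared as log2(mean + 1). Zone was tested with limma 3.58.1 (trend, collection as block, Benjamini-Hochberg threshold 0.05; R 4.3.3), with edgeR 4.0.16 and DESeq2 1.42.0 on summed reads as alternatives; the fit was tested on simulated data. Age, knockout and rod contrasts had 1 collection a side and no test. Shares have exact Clopper-Pearson intervals (95%) and a count of 0 allows 3 cells of the total; both cover counting error only. Named were the 5 genes, for each the 3 genes most alike, up to 4 genes per list with the largest change, Nck1 and the partners of Gldc chosen after their values were seen, and Thrb. The zones of 1 age share the collection, hence the block. Alternatives were the pseudocount, filters, scaling, means of logs, single cells or collections left out, and region windows. From the gene lists, 1 progenitor marker and 1 metabolic gene are not reported here, and the sums and counts of their lists leave them out.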

Additional observations from a re-analysis of the deposited data

Results flagged for a closer look

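Among the 5 zone differences (superior minus inferior, log2 of mean CPM + 1) of each gene, P8 stood apart for Nck2 and for Gldc. For Nck2 it was the lowest at -1.97, and its gap to the nearest collection took up 0.800 of the range of the 5 values. For Gldc it was the highest at 3.35, with a gap of 0.721 of the range. Both gaps exceed Dixon's 95% critical value for 5 values, and 5 genes were looked at. Its rate of about 1 chance flag in 20 groups assumes values of equal spread. At P21, P60 and 2 months both genes were near 0 in both zones. Their differences there lay between -0.033 and 0.45 for Nck2 and between -0.27 and 0 for Gldc. That rate therefore does not hold here, and nothing is concluded from the flags. The P8 values rest on 2 superior against 5 inferior cones over 10 CPM for Nck2 and on 2 superior against 0 inferior cones for Gldc.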

How the results depend on the processing

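The count of members at least 4-fold lower than at P2 stayed between 3 and 4 at P8 and between 4 and 5 at P21, P60 and 2 months under all scalings, pseudocounts and single zones run. Which members differed: with means of logs Serinc5 took the place of Gldc at P8, and Gldc dropped out later; with DESeq2 size factors Nt5dc2 dropped out at 2 months, where that scaling put the median of all genes at 2.703 in superior and 3.51 in inferior cones, against -0.34 and -0.48 as reported. Those size factors also called 2 members, Gldc and Nt5dc2, higher in rods, and dropping the minimum share of cells, with a mean of at least 5 CPM, called 1, Nck2, higher in knockout cones. Of 420 alternative log2 ratios of members, 176 moved by 1 or more and 0 called ones changed sign. The zone test called 16 genes with means of logs, 240 with DESeq2 and 2 without the collection as replicate block (no replicate block); the test of younger against older zone differences called 1 gene by edgeR, 366 by DESeq2 and 1 by edgeR with DESeq2 size factors. The cause of these differences was not tested. The Nck2 zone difference turned to 0.085 with a pseudocount of 0.1 CPM, to 0.62 with edgeR, 0.64 with DESeq2 and 0.62 with edgeR on DESeq2 size factors. That of Serinc5 turned to 0.052 with means of logs, and that of Nt5dc2 to 0.13 without the highest cell of each group. The Cdh13 change with age (0.08) turned to -0.29 with a pseudocount of 0.1 CPM, -0.19 without the highest cells, -7.10 with edgeR, -3.27 with DESeq2 and -7.12 with edgeR on DESeq2 size factors, and that of Nt5dc2 (0.65) to -0.011 with a pseudocount of 10 CPM, -0.46 with means of logs and -1.08 without the highest cells. Leaving out 1 age in turn called 0 genes each time in both zone tests and moved the zone difference over -0.47 to 0.14 for Nck2 and -0.76 to 0.10 for Serinc5, and its change with age over -0.028 to 0.19 for Cdh13 and -0.73 to 1.79 for Nt5dc2.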
